A study of Mus musculus with 22 samples.

Results

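The 10 genes described here, Clock, Arntl, Per1, Per2, Per3, Cry1, Cry2, Nr1d1, Nr1d2 and Dbp, form the core of the circadian clock and its best known output in mouse tissues. They were chosen by name, from the gene name that the array design gives to each probe, and make up 10 of the 27962 gene names on the array. They were read by 18 probes, 4 for Clock, 3 for Nr1d1, 2 each for Per2, Cry1 and Cry2, and 1 each for Arntl, Per1, Per3, Nr1d2 and Dbp, and each probe was kept apart. Total RNA of ileum and colon was hybridised to 22 one-colour Agilent arrays, 1 sample to an array. SIRT1 is a NAD-dependent deacetylase, and the study set mice labelled SIRT1 iKO against mice labelled Flox control, called iKO and flox below. All the mice were chow-fed C57BL/6 males. The groups were young iKO ileum (4 arrays) and young flox ileum (4), at 6 to 8 weeks, then aged iKO ileum (4) and aged flox ileum (3), and aged iKO colon (4) and aged flox colon (3), at 24 months. The labels do not spell out iKO, nor say which cells lose Sirt1 or what drives the deletion. They do not give the time of day at which tissue was taken, nor whether 1 mouse gave both tissues.

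In the mouse clock, the proteins CLOCK and BMAL1 (encoded by Arntl) bind E-box elements and switch on the Per and Cry genes, whose proteins return to the nucleus and block them. A second loop runs through REV-ERB alpha and beta (Nr1d1 and Nr1d2), which repress Arntl, while the transcription factor DBP acts on D-box elements of output genes. In mouse liver and other organs, Arntl messenger RNA peaks roughly when Dbp and Nr1d1 messenger RNA is low, so a single time of collection fixes where each gene stands in its cycle. SIRT1 has been reported to bind CLOCK and to deacetylate BMAL1 and PER2.

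The elements through which the loop acts can be seen in some of the members' own promoters. The 250 bases before each transcription start were taken from RefSeq (GRCm38.p6), which held 13 promoters of 9 members and none of Per2. Both strands were searched for the E-box CACGTG, its variant CACGTT, the D-boxes TTATGTAA and TTACGTAA, and the REV-ERB sites TAGGTNA and TGGGTCA. These stretches hold every match, shown because E-boxes and D-boxes are the elements through which the loop acts. The capitals mark the matched motif, and AACGTG is CACGTT read on the other strand.
Per1: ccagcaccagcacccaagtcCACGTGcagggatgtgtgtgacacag
Per3: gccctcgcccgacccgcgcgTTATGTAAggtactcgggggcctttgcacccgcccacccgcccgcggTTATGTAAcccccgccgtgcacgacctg
Cry1: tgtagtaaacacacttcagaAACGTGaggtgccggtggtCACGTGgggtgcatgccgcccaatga
Cry2: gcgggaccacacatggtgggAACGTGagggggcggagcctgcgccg
Nr1d1: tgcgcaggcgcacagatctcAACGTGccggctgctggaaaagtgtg
The stretches lie at chr11:69098763-69098808 (plus strand, Per1), chr4:151044796-151044890 (minus, Per3), chr10:85185089-85185153 (minus, Cry1), chr2:92434210-92434255 (minus, Cry2) and chr11:98775380-98775425 (minus, Nr1d1). The Per3 window held 2 D-boxes and the Cry1 window 1 copy each of CACGTG and its variant. The same search was run on 32851 mouse promoters, with a chromosome that holds no member left out. Of these, 6.02% held CACGTG, 3.85% CACGTT, 0.819% TTATGTAA, 0.113% TTACGTAA, 7.25% TAGGTNA and 3.24% TGGGTCA. The windows of Clock, Arntl, Nr1d2 and Dbp held none of these letters. A match is a description of the letters and not a measured site.

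Arntl and Dbp, whose messenger RNAs cycle in opposite phases, are each read by 1 probe of 60 bases. The Arntl probe, A_52_P267651, lies at chr7:109229489-109229548 in the design's build, mm7, and the Dbp probe, A_51_P180492, at chr7:41886169-41886228. The brightest Nr1d1 probe, A_51_P223776, spans chr11:98878251-98878753. The Arntl probe is shown because the tissue difference of Arntl rests on its letters alone. Nr1d1 probe 1 is shown as the brightest of the 3 probes of its gene.
Arntl probe: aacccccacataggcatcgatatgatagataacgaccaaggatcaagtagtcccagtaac
Nr1d1 probe 1: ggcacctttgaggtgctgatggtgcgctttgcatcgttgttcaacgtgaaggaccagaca

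Levels are given as log2 of the signal relative to the 75th percentile of the same array, so 0 is the 75th percentile and a level of 1 is a signal 2 times as bright. Levels of different probes are not compared, since each probe has its own response. The 75th percentile itself lay between 1425 and 1751 units on colon arrays and between 918 and 1231 units on ileum arrays. Of all spots, 70.4% to 79.7% were well above background on colon arrays and 49.8% to 61.5% on ileum arrays. Colon arrays lay on 4 slides and ileum arrays on another 4, scanned in 2 runs, so tissue cannot be told apart from slide set and scan run. Young iKO ileum took position 2 and young flox ileum position 1 of each slide, aged ileum positions 3 and 4, iKO colon position 4 and flox colon position 3. Age, and genotype in young ileum and in colon, therefore cannot be told apart from slide position. The ileum marker Fabp6 lay between -4.89 and -2.55 on colon arrays and between 3.20 and 3.93 on ileum arrays. 2 ileum arrays stood apart: aged iKO ileum 2 and aged flox ileum 1 had the colon marker Car1 at 7.79 and 8.18, against -3.00 to 2.63 on the other 13 ileum arrays. Their Aqp8, another colon marker, was at 5.57 and 6.55, against -5.09 to -2.08 on the others. Results are therefore also given without these 2 arrays.

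The targeted gene was read first. One Sirt1 probe averaged 0.70 ± 0.04 in young iKO ileum and 0.92 ± 0.24 in young flox ileum (SD, n = 4 each), a difference of -0.21 ± 0.12 (SE; limma, adjusted p = 0.999). It averaged 0.32 ± 0.04 in aged iKO ileum (n = 4) and 0.82 ± 0.25 in aged flox ileum (n = 3), a difference of -0.50 ± 0.13 (adjusted p = 0.187), and in colon the difference was -0.28 ± 0.11 (adjusted p = 0.631). The second Sirt1 probe differed by 0.00, -0.10 and -0.13 in young ileum, aged ileum and colon. None of these passed the test, and a probe outside the deleted part of the gene would not show the deletion, so Sirt1 does not check the labels here.

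Clock encodes the partner of BMAL1. Its brightest probe, probe 1, varied little and read 1.36, 1.73, 1.76 and 1.66 in young iKO ileum, against 1.56, 1.30, 1.38 and 1.51 in young flox ileum. It read 1.21, 1.48, 1.49 and 1.55 in aged iKO ileum, against 1.29, 1.65 and 1.41 in aged flox ileum. In colon it read 1.23, 1.25, 1.32 and 1.23 in aged iKO mice, against 1.59, 1.41 and 1.46 in aged flox mice. The groups overlapped in ileum, whereas in colon every iKO array lay below every flox array by a small margin. Clock probe 3 ran from -2.22 to -1.76 in iKO colon and from -2.01 to -1.54 in flox colon, and from -2.59 to -1.84 over the ileum arrays. Clock probe 4 was not well above background on any ileum array.

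Arntl, which encodes BMAL1, ranged over more than 1 unit within the young groups. It read 1.17, 0.30, -0.12 and -0.04 in young iKO ileum, against 0.88, 0.72, 0.21 and -0.41 in young flox ileum. It read 0.73, 0.88, 1.16 and 0.91 in aged iKO ileum, against 1.12, 1.28 and 1.37 in aged flox ileum. In colon it read 0.09, -0.30, -0.67 and -0.09 in aged iKO mice, against 0.37, 0.60 and -0.19 in aged flox mice. Aged ileum arrays were uniformly high, and colon arrays lay below all of them.

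The Per genes encode the repressors that pair with CRY. Per1 read -0.11, 0.22, -0.15 and -0.23 in young iKO ileum, against -0.29, 0.29, -0.50 and 0.39 in young flox ileum, and 1.17, 0.00, 0.54 and -0.00 in aged iKO ileum, against -0.15, 0.64 and 0.83 in aged flox ileum. In colon Per1 read 0.97, 0.94, 1.69 and 0.66 in aged iKO mice, against 1.08, 0.32 and 0.60 in aged flox mice. The 6 groups of Per1 overlapped in part, and the highest single value was an iKO colon array. The brighter Per2 probe read -0.92, -0.91, -1.21 and -1.18 in young iKO ileum, against -1.36, -1.05, -1.37 and -0.78 in young flox ileum. It read -1.24, -1.33, -1.98 and -1.54 in aged iKO ileum, against -1.57, -0.92 and -0.42 in aged flox ileum, where 2 of the 3 flox arrays stood above every iKO array. In colon it read -1.20, -1.57, -0.71 and -1.85 in aged iKO mice, against -1.35, -1.55 and -1.57 in aged flox mice, and the groups overlapped. Per2 probe 2 ran from -3.85 to -2.57 in iKO colon and from -3.40 to -2.26 in flox colon, and from -4.26 to -2.62 over the ileum arrays, 4 of which were not well above background. Per3 was dim and well above background on 11 of the 22 arrays, 7 of them all the colon arrays. Its colon levels were -4.09, -3.80, -3.63 and -4.56 in aged iKO mice, against -4.92, -4.31 and -4.77 in aged flox mice, and the single overlap was 1 iKO array.

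The Cry genes encode the other repressors. The main Cry1 probe read -2.79, -4.00, -4.15 and -4.59 in young iKO ileum, against -3.00, -3.50, -4.66 and -4.29 in young flox ileum, and 4 of these 8 values were not well above background. It read -3.62, -4.04, -3.68 and -3.46 in aged iKO ileum, against -3.28, -3.10 and -3.11 in aged flox ileum, and 2 of the 4 aged iKO values were not well above background. In colon it read -4.41, -4.85, -4.49 and -4.25 in aged iKO mice, against -4.21, -3.52 and -4.15 in aged flox mice. Colon arrays were low against aged ileum of the same genotype, with no overlap. Cry1 probe 2 ran from -5.26 to -4.21 in iKO colon and from -4.99 to -4.30 in flox colon, against -4.54 to -3.53 in aged iKO ileum and -4.12 to -3.32 in aged flox ileum. The main Cry2 probe read -1.47, -1.04, -1.30 and -1.18 in young iKO ileum, against -1.58, -1.41, -0.91 and -1.26 in young flox ileum. It read -0.99, -1.74, -1.13 and -1.25 in aged iKO ileum, against -1.52, -0.59 and -0.90 in aged flox ileum. The colon levels were 0.09, 0.05, -0.00 and -0.10 in aged iKO mice, against -0.26, -0.37 and -0.38 in aged flox mice. Every colon array was above every ileum array, and every iKO colon array was above every flox colon array.

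Nr1d1 and Nr1d2 encode the REV-ERB receptors that repress Arntl. The brightest Nr1d1 probe read -1.13, -0.03, 0.15 and 0.55 in young iKO ileum, against -0.86, -0.46, 0.77 and 0.13 in young flox ileum. It read 0.12, -0.85, -0.98 and -0.78 in aged iKO ileum, against -1.34, -0.96 and -2.64 in aged flox ileum, and -0.31, 0.52, 0.39 and 0.08 in aged iKO colon, against 0.29, -0.02 and 0.27 in aged flox colon. The aged flox ileum arrays were low, 1 of them by over 1 unit beyond the others. Nr1d2 read -0.54, 1.06, 1.16 and 1.26 in young iKO ileum, against -0.29, 0.26, 1.14 and 1.32 in young flox ileum. It read 0.15, -0.19, -0.28 and -0.14 in aged iKO ileum, against -0.52, 0.12 and -0.82 in aged flox ileum. The colon levels were 0.56, 1.25 and 0.73 in aged iKO mice, where the value of replicate 2 was left out as a spot marked as an outlier, against 0.60, 0.43 and 0.92 in aged flox mice. Replicate 1 of both young groups was low in both genes.

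Dbp, the output gene, had the widest range of all 10 genes. It read 1.36, 4.07, 4.00 and 4.26 in young iKO ileum, against 1.73, 3.12, 4.62 and 4.53 in young flox ileum. It read 2.29, 1.27, 1.01 and 1.27 in aged iKO ileum, against 1.11, 1.30 and 0.34 in aged flox ileum. The colon levels were 2.88, 3.57, 4.05 and 3.47 in aged iKO mice, against 3.01, 2.51 and 3.67 in aged flox mice. Replicate 1 of each young group was 1 to 3 units below its companions and within the range of the aged ileum arrays, while colon arrays were uniformly high. The 2 low young arrays lay on different slides.

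**Figure D1:**
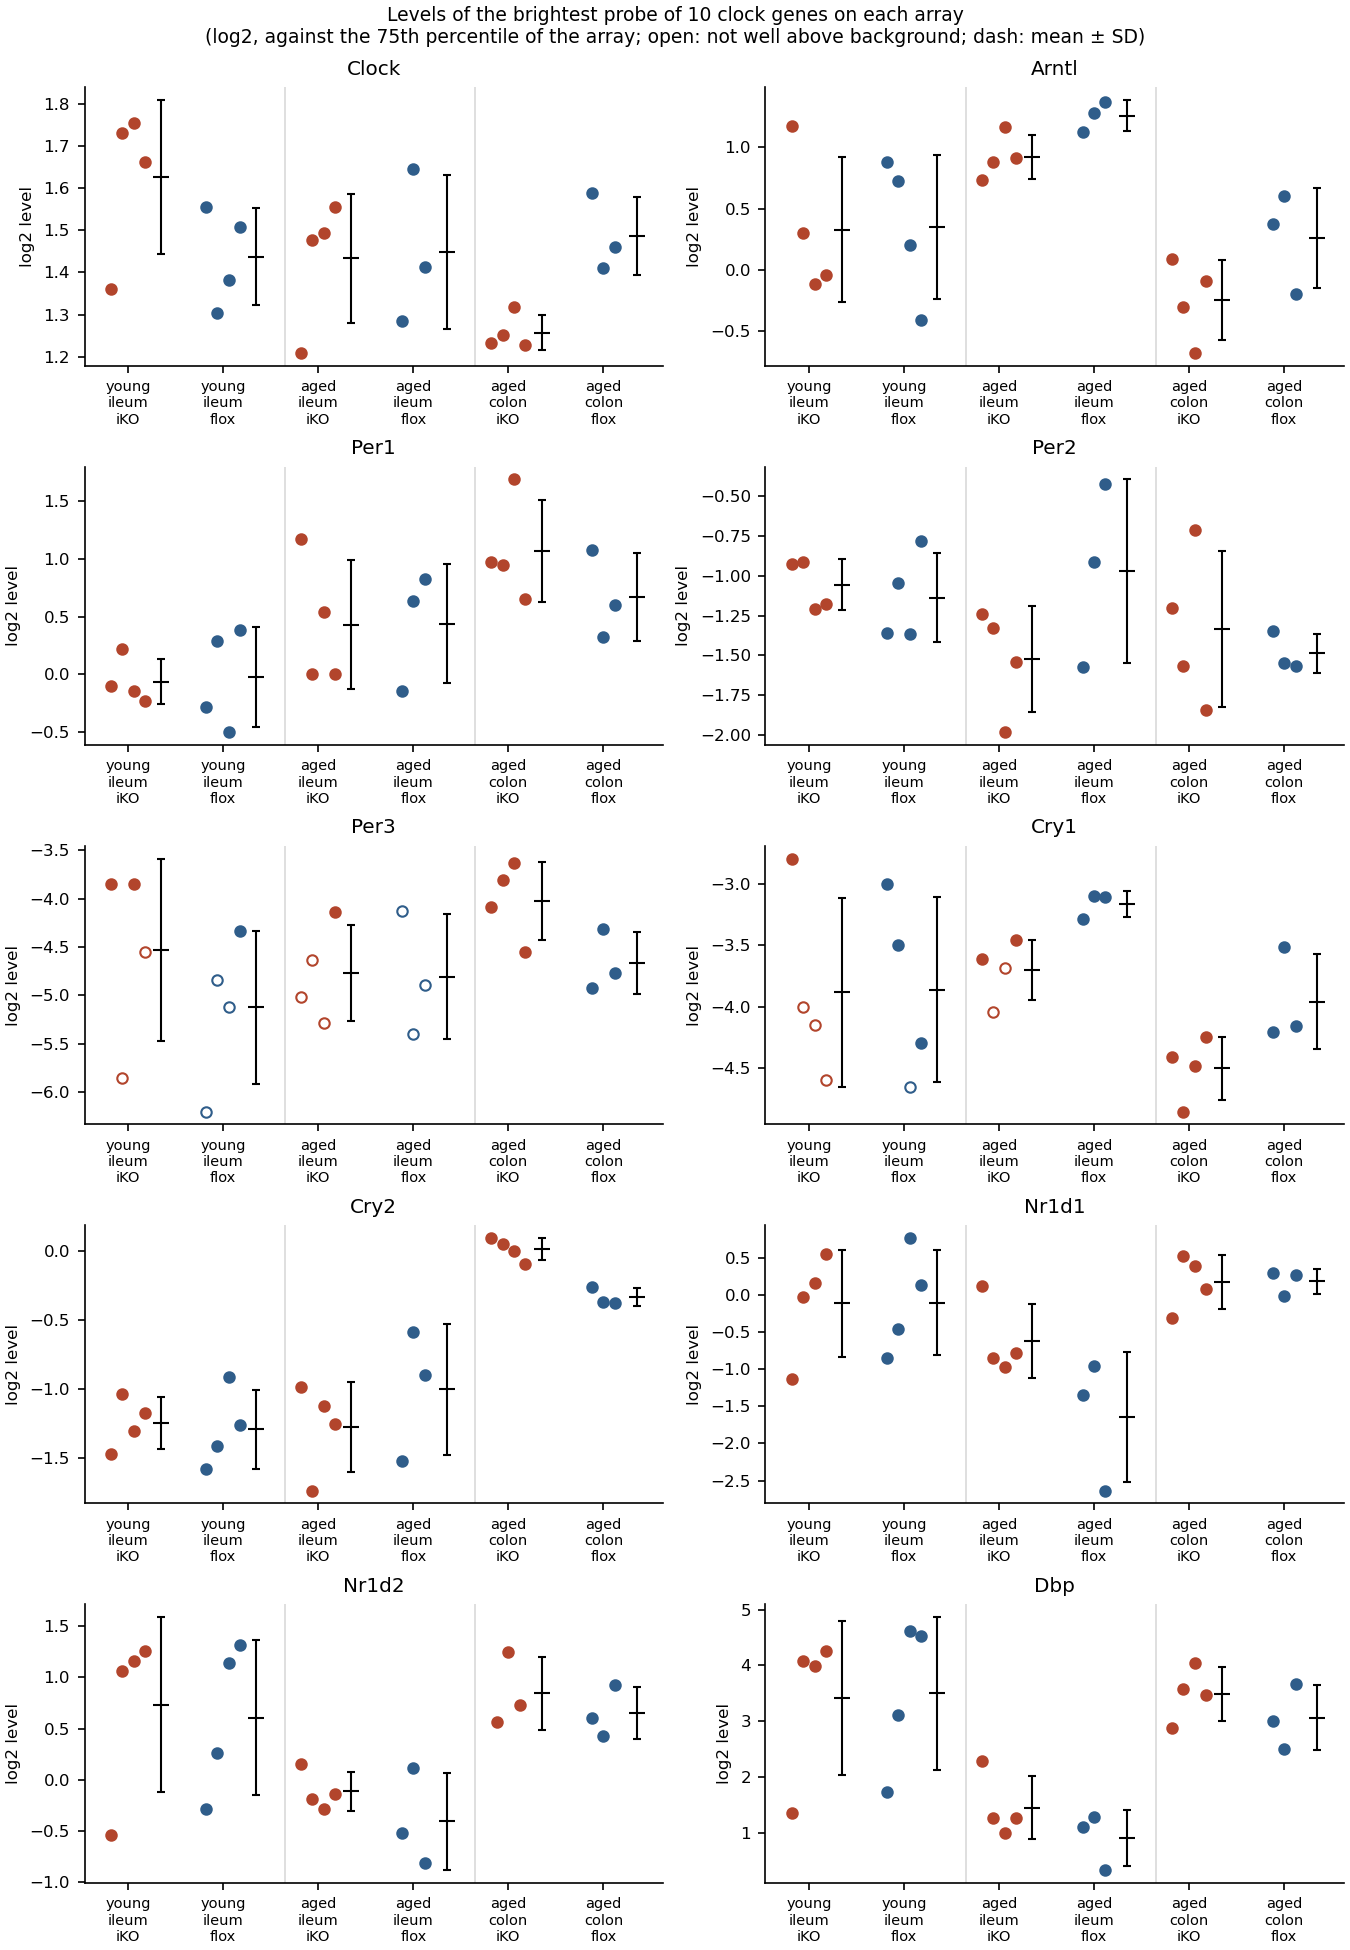
Level of the brightest probe of each of the 10 genes on every array, as log2 relative to the array's 75th percentile (vertical axis), by group (horizontal axis), with dashes for the group mean and bars for the SD. Open points were not well above background; Dbp and Arntl run opposite ways between aged ileum and colon, and 1 array in each young group is low in Dbp, Nr1d1 and Nr1d2.

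Spread between arrays of the same group set these genes apart from one another. In colon the within-group SD was 0.52 for Dbp, above that of 88.5% of the probes tested, and 0.36 for Arntl (76.1%). It was 0.42 for Per1 (81.5%), 0.39 for Per2 probe 1 (78.7%), 0.07 for Clock probe 1 (2.76%) and 0.08 for Cry2 probe 1 (4.53%), with a median of 0.21 over all probes. The spread of a gene depended on its probe, since Clock probe 3 lay at 49.3% and Cry2 probe 2 at 60.6%. In ileum the SD was 1.08 for Dbp (98.9%), 0.70 for the brightest Nr1d1 probe (95.7%) and 0.64 for Nr1d2 (94.3%). It was 0.45 for Arntl (86.9%) and 0.44 for Per1 (86.7%), with a median of 0.20 over all probes. On probe 1 it was 0.58 for Cry1 (92.6%), 0.35 for Per2 (78.8%), 0.32 for Cry2 (75.4%) and 0.16 for Clock (32.0%). Cry1 probe 1 was not well above background on some of these arrays, and Clock probe 3 lay at 53.8% in ileum. Clock messenger RNA is known to cycle little in most mouse tissues, and Dbp strongly.

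Colon differed from ileum in clock gene levels in both genotypes of aged mice. In iKO mice, Dbp was higher in colon than in ileum by 2.03 ± 0.35 (SE, 4.09-fold, limma, adjusted p = 0.000669). The same difference in flox mice was 2.15 ± 0.40 (4.43-fold, adjusted p = 0.00198). Arntl was lower in colon, by -1.17 ± 0.19 in iKO mice (adjusted p = 0.00046) and by -1.0 ± 0.22 in flox mice (adjusted p = 0.0049). The groups did not overlap for either gene. Fewer cells of a type and less RNA per cell cannot be told apart in whole tissue.

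All 18 probes entered the test of tissue. Clock probe 4, Per2 probe 2, Per3, Cry1 probe 2, Cry2 probe 2 and Nr1d1 probe 2 did so only through the colon groups. The filter favoured a higher colon level for them, so a call of any of them as higher in colon supports nothing. Clock probe 4 and Cry2 probe 2 were called so in both genotypes, and Nr1d1 probe 2 in flox mice. In iKO mice 8 of the 18 differed between colon and ileum (6 higher, 2 lower, of 6 genes), 44.4% of the members against 42.9% of all probes. In flox mice 10 of the 18 differed (8 higher, 2 lower, of 7 genes), 55.6% against 32.2%. Among the 14 member probes that were also tested within ileum, 6 differed in iKO mice (4 higher, 2 lower), against 45.7% of all such probes, and 8 in flox mice (6 higher, 2 lower), against 33.2%. Per2 probe 2 and Nr1d1 probe 2 are among these 14 through young iKO ileum alone. The flox count therefore still holds Nr1d1 probe 2. In iKO mice the members' share lies near the background, so it is no result about the members as a set.

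Of the activators, Clock probe 2 was higher in colon by 0.24 ± 0.08 in iKO mice (adjusted p = 0.0361) and by 0.63 ± 0.10 in flox mice (adjusted p = 0.000504), whereas the brightest Clock probe differed by -0.18 and 0.04, and probe 3 by 0.23 and 0.36, and passed in neither. Clock probe 4, not well above background in ileum, was at least 1.04-fold higher in iKO colon and at least 1.28-fold higher in flox colon. Such a bound sets the colon mean against the mean over ileum arrays of the higher of 2 values, the lowest signal well above background on that array and the probe's own. The iKO call of Clock probe 2 was lost when single arrays were left out, at 0.19 (adjusted p = 0.106) without aged iKO colon 2.

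Of the repressors, Cry1 and Cry2 moved in opposite directions. Cry1 probe 1 was lower in colon by -0.80 ± 0.18 in iKO mice (adjusted p = 0.00377), where 2 of the 4 ileum arrays were not well above background, and by -0.80 ± 0.21 in flox mice (adjusted p = 0.0122). Cry1 probe 2 differed by -0.49 ± 0.28 in iKO mice (adjusted p = 0.182) and by -0.88 ± 0.32 in flox mice (adjusted p = 0.0549), where it passed without any 1 of 3 arrays (adjusted p = 0.0347 to 0.0389). Cry2 probe 1 was higher by 1.29 ± 0.19 in iKO mice (adjusted p = 0.000246) and by 0.67 ± 0.22 in flox mice (adjusted p = 0.0364). Cry2 probe 2, not well above background in ileum, was at least 1.39-fold higher in iKO colon and at least 1.17-fold higher in flox colon. The flox difference of Cry2 probe 1 did not pass without any 1 of 5 flox arrays, and was 0.41 without aged flox ileum 1 (adjusted p = 0.128). Per1 differed by 0.64 ± 0.32 in iKO mice (adjusted p = 0.126) and 0.23 ± 0.37 in flox mice (adjusted p = 0.666), and neither Per2 probe nor Per3 passed. Single left-out arrays gave calls here too. Per1 in iKO mice passed at 0.89 without aged iKO ileum 1 (adjusted p = 0.037). Per3, at 0.75 ± 0.31 in iKO mice (adjusted p = 0.073), passed without any 1 of 3 arrays (adjusted p = 0.0324 to 0.0469). Per2 probe 2, at 1.02 ± 0.44 in flox mice (adjusted p = 0.0935), passed without aged iKO ileum 3 (adjusted p = 0.048).

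Of the REV-ERB genes, Nr1d2 was higher in colon by 0.96 ± 0.23 in iKO mice (adjusted p = 0.00663) and by 1.06 ± 0.25 in flox mice (adjusted p = 0.00804). Nr1d1 probe 1 differed by 0.79 ± 0.34 in iKO mice (adjusted p = 0.0813) and was higher by 1.83 ± 0.40 in flox mice (3.55-fold, adjusted p = 0.00466). In iKO mice it passed without aged iKO ileum 1 (1.04, adjusted p = 0.0297) and without aged flox ileum 4 (0.79, adjusted p = 0.0253). The second probe gave 0.59 ± 0.32 in iKO mice (adjusted p = 0.161) and 1.54 ± 0.37 in flox mice (adjusted p = 0.00829). That probe entered the test only through the colon groups, so its call adds no support to probe 1. It was well above background on 3 of 4 aged iKO and 1 of 3 aged flox ileum arrays. The third probe gave 0.25 and 0.29 and passed in neither. No member's tissue difference passed the test of a difference between genotypes: 0 of 18 by limma, 1 of 18 at an unadjusted p under 0.05, against 0.0205% of all probes called. That probe was Clock probe 2, whose colon difference was lower in iKO than in flox mice by -0.40 ± 0.13 (adjusted p = 0.671), and the interaction of Nr1d1 probe 1 was -1.03 ± 0.53 (adjusted p = 0.82).

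The scale mattered for the smaller tissue differences. With quantile normalisation the median tissue difference of all probes was -0.24 in iKO mice and -0.33 in flox mice, against 0.10 and 0.12 at the main scale. Of all probes called, 21.8% were then higher in iKO mice, against 58.6% at the main scale, and 14.8% against 62.8% in flox mice. With normexp background correction these shares were 41.7% and 43.6%. On the quantile scale the member probes called were 3 higher and 4 lower in iKO mice (38.9% against 45.9% of all probes). In flox mice they were 3 higher and 5 lower (44.4% against 42.1%). Dbp kept its direction and call at 1.80 (adjusted p = 0.00162) in iKO mice and 1.77 (adjusted p = 0.00534) in flox mice, and Arntl stood at -1.51 and -1.42. Nr1d2 no longer passed, at 0.61 (adjusted p = 0.0626) and 0.63 (adjusted p = 0.0732), nor did Cry2 probe 1 in flox mice (0.20, adjusted p = 0.538), and the brightest Clock probe turned to -0.35 in flox mice (adjusted p = 0.0308).

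Markers of some other cell types differed between the tissues too, each list taken as the mean level of its genes centred over all arrays. No probe of the adipose, endothelial or B and plasma cell markers was called between tissues. Of the 5 probes of general epithelial markers, 4 were called lower and 1 higher in iKO colon, and 3 lower and 0 higher in flox colon. The 4 general epithelial markers, all above background on every array, lay between -0.71 and -0.64 in iKO colon, against -0.05 to 0.06 in aged iKO ileum, and between -0.93 and -0.46 in flox colon, against -0.14 to -0.03 in aged flox ileum. The 5 smooth muscle markers, also all above background, lay between 0.10 and 0.88 in iKO colon, against -0.73 to -0.08 in aged iKO ileum, and between 0.28 and 0.57 in flox colon, against -0.17 to -0.09 in aged flox ileum. The 3 T cell markers lay between -2.29 and -1.26 in iKO colon, against 0.07 to 1.55 in aged iKO ileum, and between -1.73 and -0.90 in flox colon, against 0.23 to 1.00 in aged flox ileum. The part of cell makeup and of time of collection in the tissue differences was not tested.

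**Figure D2:**
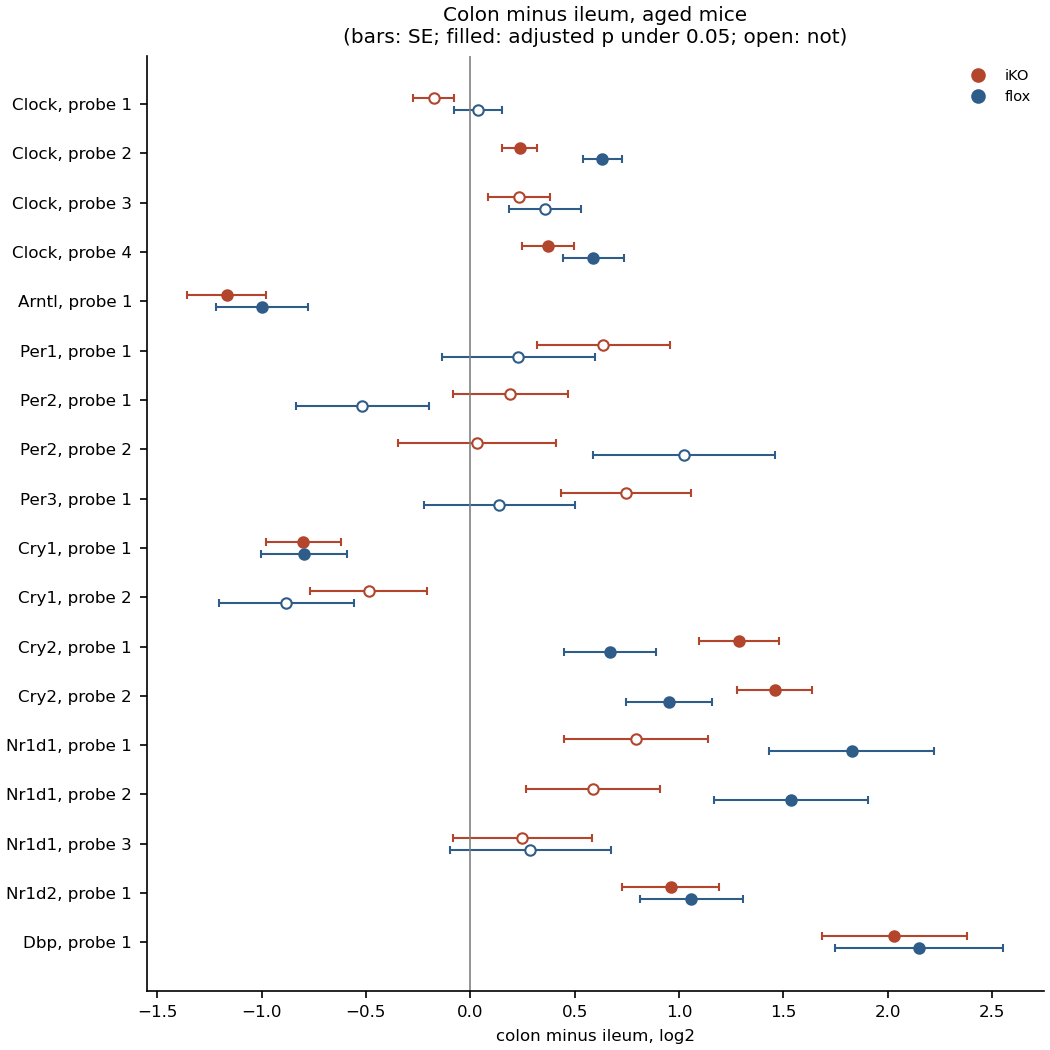
Difference between colon and ileum of aged mice for every member probe (horizontal axis, log2, bars for the SE), in iKO and in flox mice, with filled points where the adjusted p is under 0.05. Dbp, Nr1d2 and Cry2 lie to the right and Arntl and Cry1 to the left in both genotypes.

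Age was compared in ileum alone. Dbp averaged 1.46 in aged iKO ileum and 3.42 in young iKO ileum, a difference of -1.96 ± 0.69 (SE, 3.9-fold lower, limma, adjusted p = 0.0831). It averaged 0.92 in aged flox ileum and 3.5 in young flox ileum, a difference of -2.58 ± 0.75 (5.99-fold lower), with an adjusted p of 0.05002, at the edge of the threshold of 0.05. Arntl differed the other way, by 0.59 ± 0.29 in iKO mice (adjusted p = 0.204) and 0.91 ± 0.31 in flox mice (adjusted p = 0.0889). None of these passed.

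By limma, 0 of the 14 member probes tested in ileum changed with age in iKO mice, where 11.0% of all probes did, and 2 had an unadjusted p under 0.05, Dbp and Clock probe 2 (-0.26 ± 0.12, adjusted p = 0.164). In 1 of the 14 the aged and young iKO arrays did not overlap, Per2 probe 1 (lower, -0.47 ± 0.23, adjusted p = 0.199), against 19.0% of all probes. In flox mice 0 of 14 changed, where 8.0% of all probes did, and 4 had an unadjusted p under 0.05, Dbp, Arntl, Nr1d1 probe 1 and Nr1d2. There 3 of the 14 did not overlap, Arntl higher and Dbp and Nr1d1 probe 1 lower, against 24.3% of all probes. Nr1d1 probe 1 gave -0.51 ± 0.45 in iKO mice (adjusted p = 0.494) and -1.54 ± 0.49 in flox mice (adjusted p = 0.0659). Nr1d2 gave -0.85 ± 0.41 in iKO mice (adjusted p = 0.197) and -1.01 ± 0.44 in flox mice (adjusted p = 0.166). Per1 gave 0.49 ± 0.29 in iKO mice and 0.47 ± 0.31 in flox mice, and did not pass in either.

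Within the slides that held both ages, the Dbp difference ran between -3.07 and -0.09 in iKO mice and between -3.89 and -1.82 in flox mice, and the Arntl difference between -0.29 and 0.94 in iKO mice and between 0.56 and 1.04 in flox mice. Leaving out replicate 1 of a young group changed the calls. Without young iKO ileum 1, Dbp passed in iKO mice (-2.65, adjusted p = 0.0154) and in flox mice (-2.58, adjusted p = 0.0213), where the array enters only the estimate of spread. Arntl also passed without it in iKO mice (0.87, adjusted p = 0.0414) and in flox mice (0.91, adjusted p = 0.0439), as did Nr1d2 in iKO mice (-1.27, adjusted p = 0.0306) and Nr1d1 probe 1 in flox mice (-1.54, adjusted p = 0.048). Without young flox ileum 1, Dbp in flox mice stood at -3.17 (adjusted p = 0.0276). Without the 2 ileum arrays of high Car1 and Aqp8, Dbp stood at -1.90 (adjusted p = 0.165) in iKO mice and -2.68 (adjusted p = 0.124) in flox mice. No member's age difference itself differed between genotypes: 0 of 14 by limma, 0 at an unadjusted p under 0.05, against 0.0% of all probes, with an interaction of 0.62 ± 1.02 for Dbp and 1.03 ± 0.66 for Nr1d1 probe 1.

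The 4 epithelial markers lay between -0.05 and 0.06 in aged iKO ileum, against 0.45 to 0.82 in young iKO ileum, and between -0.14 and -0.03 in aged flox ileum, against 0.53 to 0.70 in young flox ileum. The 3 endothelial markers lay between -0.18 and 0.13 in aged iKO ileum, against -0.77 to 0.11 in young iKO ileum, and between 0.07 and 0.56 in aged flox ileum, against -0.45 to -0.21 in young flox ileum. Their part in the age differences, and that of the time of collection, was not tested. Quantile normalisation moved the median of all probes to -0.28 in iKO mice and -0.25 in flox mice with age. The share of all calls that were higher was then 4.80% in iKO mice, against 46.6% at the main scale, and 5.26% against 37.2% in flox mice.

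**Figure D3:**
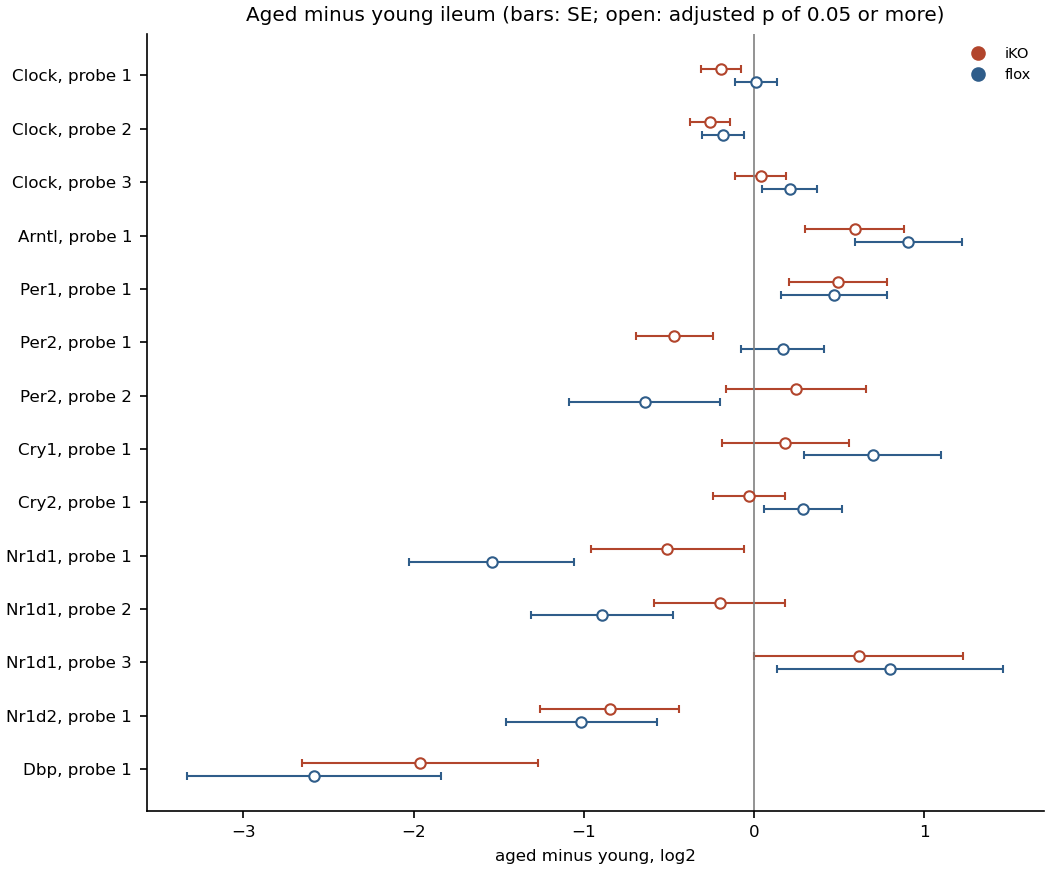
Difference between aged and young ileum for each of the 14 member probes tested (horizontal axis, log2, bars for the SE), in iKO and in flox mice; open points did not pass. Dbp lies farthest to the left in both genotypes, at -1.96 in iKO and -2.58 in flox mice, with the widest error bars.

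No member passed the test between iKO and flox mice in any of the 3 comparisons. In young ileum Dbp averaged 3.42 in iKO mice and 3.5 in flox mice, a difference of -0.08 ± 0.69, and its within-slide differences ran between -1.76 and 2.34. Arntl differed by -0.02 ± 0.29, Per1 by -0.04 ± 0.29, Nr1d1 probe 1 by -0.01 ± 0.45, Nr1d2 by 0.13 ± 0.41 and Clock probe 1 by 0.19 ± 0.12. By limma, 0 of 14 member probes were called and 0 had an unadjusted p under 0.05, where 0.0359% of all probes were called; the lowest adjusted p was 0.999. The SEs of Arntl, Per1, Nr1d1, Nr1d2 and Dbp ran from 0.29 to 0.69, so a difference of a similar size was not detectable with this number of arrays. Differences larger than their SE can also go uncalled after adjustment over all probes tested. The absence of a call therefore sets no bound on the size of a difference.

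In aged ileum 0 of 14 were called, where 0.148% of all probes were, and 1 had an unadjusted p under 0.05. It was Per2 probe 1, which averaged -1.52 in iKO and -0.97 in flox mice, a difference of -0.55 ± 0.25 (adjusted p = 0.412). Nr1d1 probe 1 averaged -0.62 in iKO and -1.65 in flox mice, a difference of 1.02 ± 0.49 (adjusted p = 0.441). Dbp differed by 0.54 ± 0.75 (adjusted p = 0.807), Arntl by -0.34 ± 0.31 (adjusted p = 0.703) and Cry1 probe 1 by -0.54 ± 0.40 (adjusted p = 0.626). Fitting a weight for each array, a setting that gives less weight to arrays far from their group, called Per2 probe 1 (adjusted p = 0.0401) and Nr1d1 probe 1 (adjusted p = 0.0433), and with it 6.08% of all probes.

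In colon 0 of 18 were called, where 0.103% of all probes were, and 5 had an unadjusted p under 0.05. Cry2 probe 1 averaged 0.01 in iKO and -0.34 in flox mice, a difference of 0.35 ± 0.10 (adjusted p = 0.433) that ran between 0.16 and 0.42 within slides. Clock probe 2 differed by -0.31 ± 0.11 (adjusted p = 0.548), Clock probe 1 by -0.23 ± 0.09 (adjusted p = 0.665), Cry1 probe 1 by -0.54 ± 0.21 (adjusted p = 0.649) and Per3 by 0.65 ± 0.25 (adjusted p = 0.627). In 4 of the 18 the iKO and flox arrays did not overlap, Cry2 probe 1 higher and Cry1 probe 1 and Clock probes 1 and 2 lower, against 8.28% of all probes. The clock pair showed -0.50 ± 0.24 for Arntl (adjusted p = 0.754) and 0.42 ± 0.34 for Dbp (adjusted p = 0.889), with the Arntl difference between -0.90 and -0.47 and the Dbp difference between 0.37 and 1.06 within slides. Position on the slide and genotype cannot be told apart there.

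**Figure D4:**
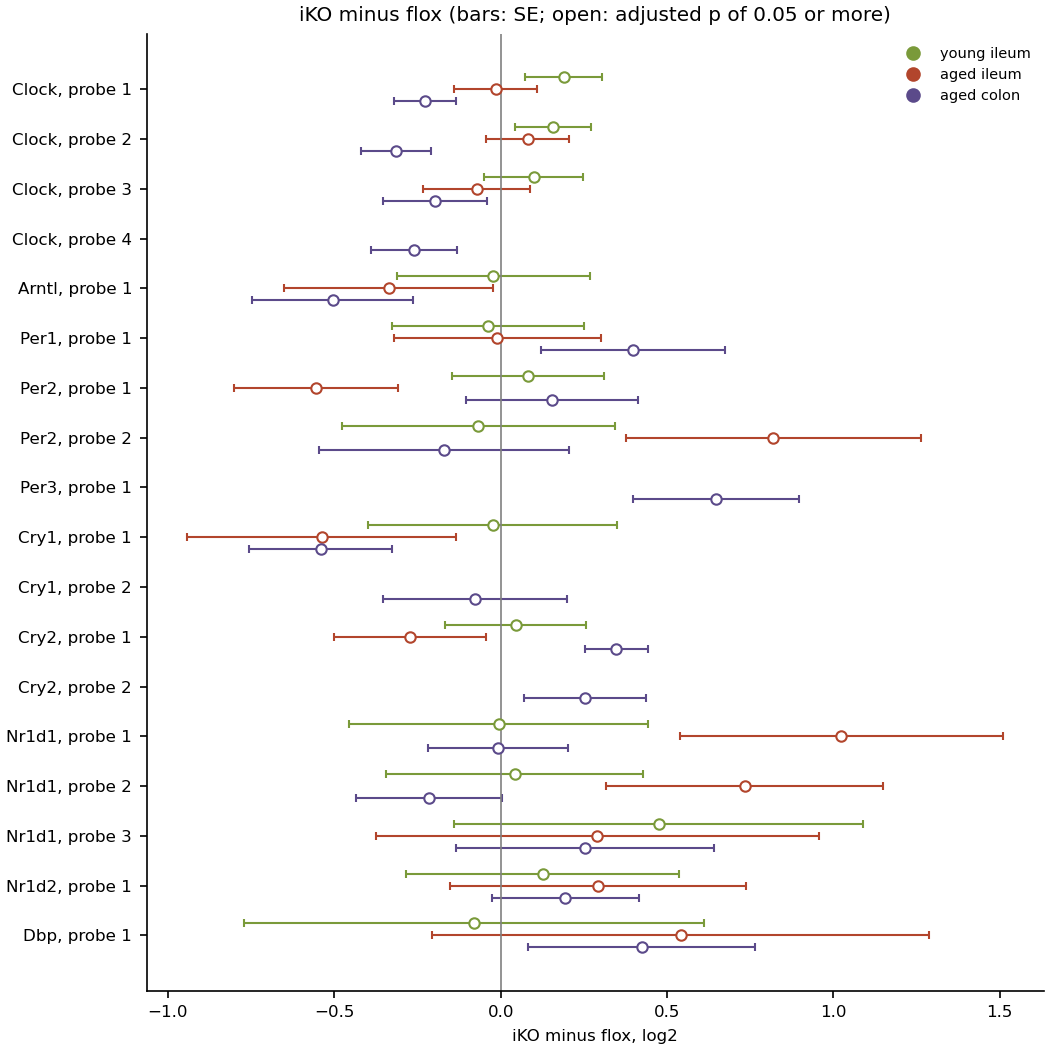
Difference between iKO and flox mice for each member probe (horizontal axis, log2, bars for the SE) in young ileum, aged ileum and aged colon. All points are open because none had an adjusted p under 0.05. In young ileum the differences of Dbp, Arntl, Per1 and the brightest Nr1d1 probe lie between -0.08 and -0.01, and Nr1d1 probe 3 lies at 0.47 with an SE of 0.61.

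Arntl and Dbp were compared array by array, since they are known to cycle in opposite phases in mouse tissues. After each group's mean was taken away, the 2 levels ran opposite ways over the 7 colon arrays, with Pearson's r = -0.971 (two-sided exact permutation test, arrays permuted within groups, p = 0.00694) and Spearman's rho = -0.929 (exact p = 0.0139). Over the 15 ileum arrays r was -0.886 (exact permutation p = 0.00099) and rho -0.871 (exact p = 0.0021). The Benjamini-Hochberg adjusted values for r over these 2 relations were 0.00694 in colon and 0.00198 in ileum. The 2 arrays whose Arntl level, before group means were taken away, lay farthest from the median were then left out. In colon r was -0.931, where 5 arrays could no longer reach a p under 0.05 (exact permutation p = 0.167). It was -0.928 in ileum, where the arrays left out were young flox ileum 4 and young iKO ileum 3. Replicate 1 of each young group, low in Dbp, thus stayed in. Leaving out single ileum arrays gave r from -0.912 to -0.797. With slide means taken away in place of group means, r was -0.989 in colon and -0.952 in ileum. The colon value did not pass (exact permutation p = 0.25), a design too small to do so. Without the 2 ileum arrays of high Car1 and Aqp8 it was -0.890 in ileum (exact permutation p = 0.00188). Both levels of an array share its scaling percentile, and the part of that and of the time of collection was not tested.

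**Figure D5:**
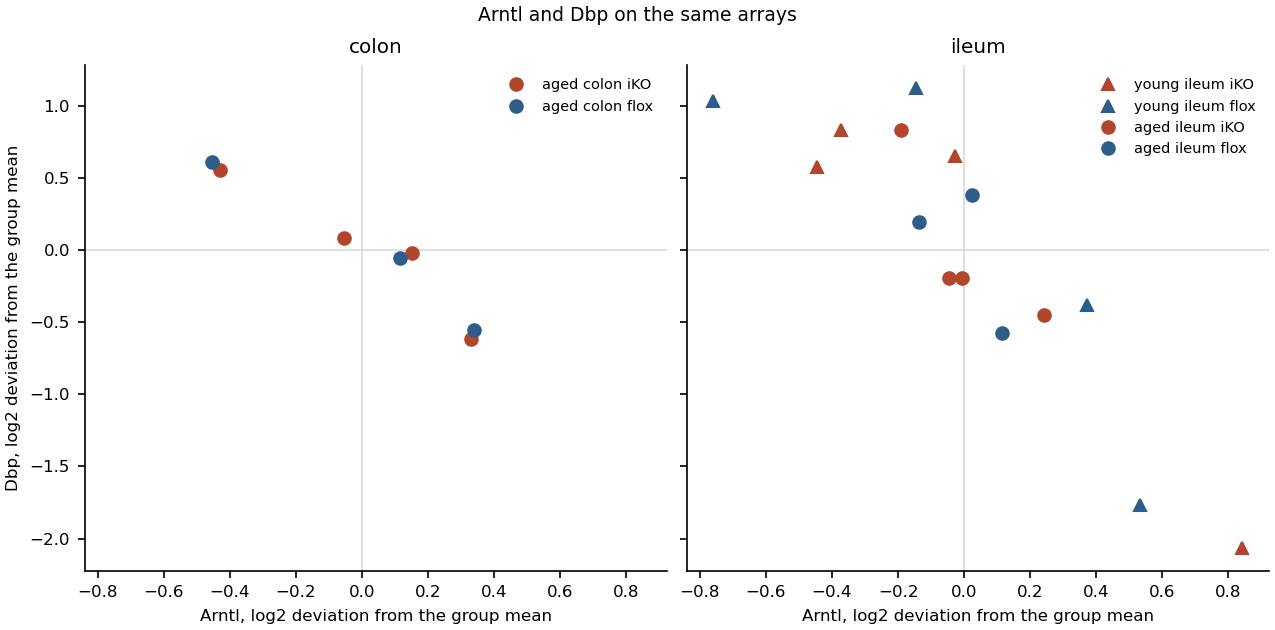
Deviation of Dbp from its group mean (vertical axis, log2) against that of Arntl (horizontal axis, log2), 1 point per array, for colon (left panel) and ileum (right panel). Arrays high in Arntl are low in Dbp in both panels, and replicate 1 of each young ileum group lies at the lower right.

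Over all 22 arrays, and 19146 probes well above background, the probes whose levels ran most like Arntl or Dbp were named by their correlation, as a description over arrays that share groups. The probes that ran most like Arntl were A_52_P187565 (r = 0.914), A_52_P631726 (0.909) and that of LOC671950 (0.879). Of the probes ranked, Dbp ran most against Arntl (r = -0.883), followed by Tcap (-0.875) and Gm114 (-0.863). With Dbp, the closest probe ranked was Tef (r = 0.941), which encodes another PAR bZIP factor, then Tcap (0.908) and Nr1d1 (0.869). Nr1d2, measured on 21 arrays and for that reason not ranked, had r = 0.966 with Dbp and -0.885 with Arntl. Both values lie beyond those of the ranked probes. Nfil3, whose protein competes with DBP for D-boxes, had 2 probes with r = 0.727 and 0.697 with Arntl and -0.720 and -0.703 with Dbp. Per1 (0.201), the main Per2 probe (0.061) and Clock (0.225) had little relation to Dbp, and Cry2 had 0.457.

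Of 26 further genes that act on the clock, such as its kinases, ubiquitin ligases and other D-box factors, 23 were tested in ileum (41 probes). None was called between genotypes in young ileum, aged ileum or colon, with 0, 4 and 5 probes at an unadjusted p under 0.05. Among the lowest p in aged ileum were those of Bhlhe40 (DEC1, another E-box repressor), at -0.63 ± 0.19 (adjusted p = 0.237), and Cul1 (-0.27 ± 0.09, adjusted p = 0.264). With age, 4 of the 41 probes changed in iKO mice, 9.76% against 11.0% of all probes, and 1 in flox mice, 2.44% against 8.0%, so neither count stands out from the background. Cul1, the cullin of the SCF ubiquitin ligase, fell by 0.48 (adjusted p = 0.00327), Skp1a, another subunit, by 0.39 (adjusted p = 0.0243) and Rack1 by 0.25 (adjusted p = 0.0432), while Nono, a PER-binding protein, rose by 0.59 (adjusted p = 0.0174). In flox mice Skp1a fell by 0.38 ± 0.11 (adjusted p = 0.0442) and was the only probe of the 41 called. The list's median was -0.09 in iKO and -0.05 in flox mice, against -0.02 and -0.03 for all probes.

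Between colon and ileum, 17 of 44 probes of this list changed in iKO mice (9 higher, 8 lower), 38.6% against 42.9% of all probes, and 13 in flox mice (7 higher, 6 lower), 29.5% against 32.2%. Neither share is above the background. The list's median was 0.00 and -0.03, against 0.10 and 0.12 for all probes. Nfil3 was lower in colon on both probes, by -1.99 ± 0.30 and -1.88 ± 0.33 in iKO mice (adjusted p = 0.000303 and 0.000791) and by -2.0 ± 0.35 and -2.01 ± 0.38 in flox mice (adjusted p = 0.00133 and 0.00213). Hlf, another PAR bZIP factor, was higher by 1.27 ± 0.18 in iKO mice (adjusted p = 0.000152) and by 0.80 ± 0.20 in flox mice (adjusted p = 0.0105). Skp1a was lower by -0.87 ± 0.10 in iKO mice (adjusted p = 3.66e-05) and by -0.63 ± 0.11 in flox mice (adjusted p = 0.0016), and Csnk1d, a kinase of PER, by -0.70 ± 0.09 (adjusted p = 0.000116) and -0.54 ± 0.11 (adjusted p = 0.00268). Nono was higher by 0.61 ± 0.14 in flox mice (adjusted p = 0.00639). Tef, on the probe above background in every aged iKO array, was higher by 1.34 ± 0.26 in iKO mice (adjusted p = 0.00136). Fbxl21, a CRY ubiquitin ligase, was lower by -3.47 ± 0.37 in iKO mice (adjusted p = 2.29e-05) and by -3.86 ± 0.43 in flox mice (adjusted p = 6.67e-05), and was well above background on only 2 of 4 iKO colon arrays and 1 of 3 flox colon arrays.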

How the data were processed

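Total RNA of 22 samples was labelled with Cy3 and hybridised to one-colour Agilent mouse arrays. Per the file headers, the deposited files hold 1 row per spot with the processed signal, an intensity on a linear scale made by Agilent Feature Extraction 9.5 (version per the submitters' processing notes) after background subtraction. The deposited value table held the same intensities as the scanner files.

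Spots of 1 probe were averaged after control spots and flagged outliers were left out, which left 41174 probes. The log2 of each intensity minus the log2 of the array's 75th percentile was taken. A probe was tested if some group of the fit had it well above background on all its arrays. limma 3.58.1 in R 4.3.3 (lmFit and eBayes, group means only) was fitted to all 15 ileum arrays, all 7 colon arrays, or all 14 arrays of aged mice, every probe apart. Benjamini-Hochberg adjustment ran over all probes tested, with a threshold of 0.05. Sample groups came from the titles. The arrays are not stated to come from separate mice, so p-values measure the spread between these samples, and the number of arrays limits the precision.

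All 10 members are named. Of the further lists, the rule names genes called in a comparison (up to 8 probes by p), or else those of smallest p, and the text gives some of them. The members and the lists were chosen with earlier results of these data known, so none is independent support. Other scalings, background correction, filters, slide terms, array weights, replicate blocks and left-out arrays were tried as alternatives. Leaving out the 2 ileum arrays with high Car1 and Aqp8 was chosen after seeing the data. The test was tried on simulated data. Some members of the lists are not reported here.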

Additional observations from a re-analysis of the deposited data

Results flagged for a closer look

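Of 49 groups of 4 arrays tested by Dixon's gap over range, 3 values stood far from their group; chance flags about 1 in 20 groups. Dbp read 1.36 on young iKO ileum 1, where the other young iKO ileum arrays read 4.00 to 4.26, a gap of 0.911 of the group's range. Nr1d2 read -0.54 on the same array, where the others read 1.06 to 1.26, a gap of 0.889 of the range. Nr1d1 probe 2 read -3.34 on aged iKO colon 1, where the others read -2.74 to -2.70, a gap of 0.939 of the range.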

How the results depend on the processing

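Member counts of 0 between genotypes in young ileum and colon, and for both interactions, stayed 0 under every alternative run. Array weights gave 2 member calls between genotypes in aged ileum, in place of 0 (14.3% against 6.08%). For age in iKO mice, in place of 0, quantile normalisation gave 5 (35.7% of the member probes against 31.1% of all probes) and array weights 1 (7.14% against 15.1%). Left-out arrays gave 0 to 3, with 1032 to 2639 of all probes called. For age in flox mice, in place of 0, quantile normalisation gave 3 (21.4% against 21.1%), normexp 1, a stricter filter 1, the brightest probe per gene 1, array weights 4 (28.6% against 22.4%), the slide as a random block 1 and left-out arrays 0 to 3. The adjusted p of Dbp with age was 0.0271 with quantile normalisation in iKO mice and 0.00779 with array weights in flox mice. With a term for position 4 on the slide it was 0.487 (-1.22) in iKO mice and 0.106 (-2.25) in flox mice. Only aged ileum arrays took position 4, so that term does not adjust age for position. Counts by tissue were 5 in iKO and 6 in flox mice with the stricter filter and also with the brightest probe per gene, which test fewer probes, and 6 to 9 and 9 to 11 with left-out arrays. Under quantile normalisation the tissue difference turned for Clock probes 2 and 4 in iKO mice (-0.15 and -0.17) and Clock probe 1 in flox mice (-0.35), and with normexp for Clock probe 4 in iKO mice (-0.042). The median of all probes moved as well, to -0.24 in iKO and -0.33 in flox mice with quantile normalisation and to -0.07 in iKO mice with normexp, against 0.10 and 0.12 at the main setting. Leaving out the 2 ileum arrays of high Car1 and Aqp8 was an alternative chosen after seeing the data. Without them, 6 of 18 member probes were called by tissue in iKO mice (33.3% against 39.5% of all probes). In flox mice 11 of 18 were called (61.1% against 29.8%), and 0 in the other comparisons run. Over all alternatives, the probes called overall ran from 5 to 14 between genotypes in young ileum (8 at the main setting), 11 to 1355 in aged ileum (33) and 1 to 78 in colon (30). They ran from 364 to 6920 with age in iKO mice (2445), 546 to 4999 in flox mice (1783), 8636 to 19759 by tissue in iKO mice (12540), 6342 to 15987 in flox mice (9430), 0 to 6 for genotype by age (0) and 0 to 10 for genotype by tissue (6).

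Replicate numbers are not stated to pair the samples. After group means were taken away, same-numbered arrays correlated above 0.1 in 15 of 21 ileum pairs. The same held in 1 of 7 pairs of aged ileum and colon, and in 1 of 3 colon pairs. Arrays of unlike number were not compared, so whether replicate number marks a shared block in ileum was not tested. With the replicate block, member calls were 0 in every genotype and age comparison and for both interactions. By tissue they were 6 in iKO mice (33.3% against 38.3% of all probes) and 8 in flox mice (44.4% against 26.7%). Of all probes, 1 was then called between genotypes in colon, against 30.

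The Arntl and Dbp relation in colon was -0.989 by slide means (exact permutation p = 0.25) and -0.931 without the 2 farthest arrays (exact permutation p = 0.167), designs too small to pass. Left-out arrays gave -0.990 to -0.952 in colon and -0.912 to -0.797 in ileum.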

Other observations

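Other rhythmic genes of tissues, 18 in all and 16 tested in ileum (27 probes), had none called between genotypes in young ileum, aged ileum or colon by limma, with 0, 1 and 2 probes at an unadjusted p under 0.05. With age 6 probes of 3 genes were lower in iKO mice, 22.2% of the list against 11.0% of all probes. Cdkn1a (p21, a cell cycle inhibitor) differed by -0.74 ± 0.12 (SE, adjusted p = 0.0028), Usp2, a deubiquitinase, by -0.91 ± 0.24 and -0.44 ± 0.12 (adjusted p = 0.0293 and 0.037), and Coq10b by -0.55 to -0.44 on 3 probes. In flox mice 3 probes of these genes were lower (11.1% against 8.0%), Cdkn1a by -0.96 ± 0.13 (adjusted p = 0.000908), Usp2 by -0.51 ± 0.13 (adjusted p = 0.0346) and Coq10b by -0.36 ± 0.10 (adjusted p = 0.0499). The median of the list was 0.17 in iKO and 0.12 in flox mice, against -0.02 and -0.03 for all probes.

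Between colon and ileum, 14 of 29 probes of this list changed in iKO mice (12 higher, 2 lower), 48.3% against 42.9% of all probes, and 12 in flox mice (8 higher, 4 lower), 41.4% against 32.2%, with a median of 0.34 and 0.16, against 0.10 and 0.12 for all probes. Slc9a3, the apical sodium and proton exchanger, was higher in colon by 2.29 ± 0.50 in iKO mice (adjusted p = 0.00337) and by 2.69 ± 0.58 in flox mice (adjusted p = 0.00459). Ppargc1b, a coactivator of mitochondrial genes, was higher by 0.98 to 0.99 on 3 probes in iKO mice and by 0.96 to 1.02 in flox mice. Ppargc1a, its relative, was higher by 1.22 ± 0.25 and 1.25 ± 0.28 on 2 probes in iKO mice (adjusted p = 0.0024 and 0.00335) and Cys1 by 0.96 ± 0.20 (adjusted p = 0.00263). In flox mice Coq10b was higher by 0.83 ± 0.19 (adjusted p = 0.00551) and Usp2 lower by -0.92 ± 0.20 and -0.90 ± 0.22 (adjusted p = 0.00425 and 0.00952). Nampt, the NAD salvage enzyme, was lower by -0.74 ± 0.09 in iKO mice (adjusted p = 5.69e-05) and by -0.47 ± 0.10 in flox mice (adjusted p = 0.00534).

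Of 7 heat-shock and cold-inducible genes on the array, none was called between genotypes or ages. Between colon and ileum, 3 of the 13 probes of this list changed in iKO mice (2 higher, 1 lower), 23.1% against 42.9% of all probes. In flox mice 0 of 13 changed, against 32.2% of all probes, so neither share is above the background. In iKO mice Hspb1 was higher in colon than in ileum by 0.90 ± 0.27 (adjusted p = 0.018). There Rbm3, the cold-inducible RNA-binding protein, was lower by -0.36 ± 0.12 (adjusted p = 0.0362). Among 11 immediate early genes, none was called between genotypes or ages. By tissue, 5 of its 14 probes changed in iKO mice (2 higher, 3 lower), 35.7% against 42.9% of all probes, and 4 in flox mice (2 higher, 2 lower), 28.6% against 32.2%. Ier2 was higher in colon by 0.46 ± 0.13 in iKO mice (adjusted p = 0.0148) and by 0.49 ± 0.15 and 0.61 ± 0.20 in flox mice (adjusted p = 0.0298 and 0.0333), and Klf4 was higher by 0.43 ± 0.11 in iKO mice (adjusted p = 0.0093). Zfp36 was lower by -0.89 ± 0.22 and -0.77 ± 0.20 in iKO mice (adjusted p = 0.00653 and 0.00939) and by -1.23 ± 0.25 and -1.07 ± 0.23 in flox mice (adjusted p = 0.00334 and 0.00494), and Egr2 by -1.62 ± 0.39 in iKO mice (adjusted p = 0.00571).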
